A study of Mus musculus with 6 samples.

Results

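The genes described here encode the spindle assembly checkpoint and the proteins that switch the anaphase-promoting complex, or APC/C, on and off. They were 10 genes of the 24062 in the count table, chosen by symbol for this function with earlier results of these data known. The checkpoint genes were Ttk, Bub1, Bub1b, Bub3 and Mad2l1. The others were the APC/C activators Cdc20 and Fzr1, the ubiquitin-conjugating enzymes Ube2c and Ube2s, and the inhibitor Fbxo5. All 10 were among the 16904 genes that could be tested. They were measured by RNA-seq in mouse retinae at postnatal day 21, with 3 retinae labelled Chx10-Cre Rb1/p107/Hells (TKO) and 3 labelled Chx10-Cre Rb1/p107 (DKO), all of strain C57BL/6. Per the study's methods, both groups carried the Chx10-Cre transgene, floxed Rb1 alleles and p107-null alleles, and TKO mice carried floxed alleles of Hells, a chromatin remodeler, in addition. Chx10-Cre acts in a mosaic of retinal progenitors, so each retina also held cells that had not recombined. Both sexes were used. The comparison asks how early loss of Hells changes the transcriptome of a retina that is prone to retinoblastoma.

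The spindle assembly checkpoint delays anaphase until every chromosome is attached to the mitotic spindle. Kinases at unattached kinetochores start the signal, and MAD2, BUBR1 and BUB3 then bind CDC20 and keep it from activating the APC/C, a ubiquitin ligase whose substrates include securin and the mitotic cyclins. Once the checkpoint is satisfied, CDC20 and later CDH1 (the product of Fzr1) direct the APC/C to these substrates, and CDH1 also keeps the APC/C active in cells that have left the cycle, including neurons.

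Total counts per library ran from 10343907 to 14203098. Hells had 60.8 to 83.4 normalized counts in TKO and 395 to 678 in DKO libraries, the direction that the labels give. This count covers the whole gene and not the floxed exon alone. Other genes, such as Mki67 below, separated the libraries too, so it does not by itself check the Hells genotype. Rb1 (log2 fold change 0.34, edgeR adjusted p = 0.0388) and Rbl1, the gene of p107 (0.13, edgeR adjusted p = 0.839), carried the same alleles in both groups. Rod markers, among them Gnat1, were detected in every library. Replicate 3 of each group lay nearest the other group: Mki67, a marker of dividing cells, had 166, 327 and 784 normalized counts in the TKO retinae and 3514, 2157 and 1644 in the DKO retinae (replicates 1, 2 and 3 in this order, here and below). No source states whether the retinae of a group came from separate animals, so p-values measure the spread between these samples. In whole retinae, fewer cells of a type and less RNA per cell cannot be told apart.

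Of the 10 genes, 5 were differentially expressed, all lower in TKO retinae: Cdc20, Ube2c, Bub1, Ttk and Fbxo5. Differential expression required 3 things: a mean count of 10 or more after scaling, a change of 1 or more on the log2 scale, and an edgeR quasi-likelihood p no higher than 0.05 after Benjamini-Hochberg adjustment. By this rule 4.38% of all genes tested were lower and 1.97% higher. With the adjusted p alone, 8 of the 10 genes were lower, against 9.2% of all genes (7.35% were higher), with Bub3, Mad2l1 and Ube2s added. For each of the 10 genes every TKO retina had fewer normalized counts than every DKO retina, as for 20.6% of all genes tested (18% had TKO higher). The log2 fold changes ran from -2.93 (Cdc20) to -0.10 (Fzr1), with a median of -1.17 beside -0.011 for all genes. None of the 10 was higher. As the genes were chosen with earlier results of these data known, these shares describe them and do not test the set.

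Start-site windows of the genes are shown because the 5 differentially expressed genes and Bub3 carry the same pair of short words near the start. Bub1b, which like Bub3 was not differentially expressed, holds both words too, while Fzr1, Ube2s and Mad2l1 do not carry the pair. Of the 10 genes, 7 are printed, without Fbxo5, Bub1b and Mad2l1. The windows come from RefSeq on GRCm38.p6, which held all 10 genes (Bub3 with 2 windows, of which the upstream start is shown), and run from 250 bases before to 50 bases after the start. The words searched on both strands were the cell cycle genes homology region (TTTGAA or TTCGAA) and the CCAAT box (CCAAT), both known from start regions of genes expressed late in the cell cycle. They share no bases with each other in the lines shown. Each line gives 120 bases before and 20 after the start, 5′ to 3′ on the gene's strand, with the matches in capitals.
Cdc20, chr4:118437324-118437463, minus strand: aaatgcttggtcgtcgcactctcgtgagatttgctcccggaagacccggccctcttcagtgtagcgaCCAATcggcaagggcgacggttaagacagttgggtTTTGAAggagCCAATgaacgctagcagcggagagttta
Ube2c, chr2:164769809-164769948, plus strand: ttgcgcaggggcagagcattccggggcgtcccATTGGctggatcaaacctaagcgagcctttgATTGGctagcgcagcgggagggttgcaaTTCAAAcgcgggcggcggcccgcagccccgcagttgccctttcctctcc
Bub1, chr2:127831840-127831979, minus strand: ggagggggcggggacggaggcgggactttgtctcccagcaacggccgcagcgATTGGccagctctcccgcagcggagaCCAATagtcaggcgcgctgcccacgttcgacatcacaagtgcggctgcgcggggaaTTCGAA
Ttk, chr9:83834569-83834708, plus strand: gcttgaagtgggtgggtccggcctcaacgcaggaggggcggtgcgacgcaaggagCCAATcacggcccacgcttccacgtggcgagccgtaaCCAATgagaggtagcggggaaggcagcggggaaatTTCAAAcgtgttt
Bub3, chr7:131560250-131560389, plus strand: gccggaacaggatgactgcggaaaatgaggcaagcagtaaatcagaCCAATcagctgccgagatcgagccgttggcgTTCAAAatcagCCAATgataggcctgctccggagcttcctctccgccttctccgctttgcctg
Fzr1, chr10:81378351-81378490, minus strand: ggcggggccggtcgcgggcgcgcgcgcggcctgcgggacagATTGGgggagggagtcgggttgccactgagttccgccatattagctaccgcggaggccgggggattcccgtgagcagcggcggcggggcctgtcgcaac
Ube2s, chr7:4812321-4812460, minus strand: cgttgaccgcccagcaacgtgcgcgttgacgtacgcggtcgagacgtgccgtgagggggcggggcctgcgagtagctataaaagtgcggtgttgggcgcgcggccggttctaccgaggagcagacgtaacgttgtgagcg

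Over the whole windows of 300 bases, 7 of the 10 genes held both words and 6 held at least 2 CCAAT boxes, beside 8.61% and 13.3% of the 27025 genes with a window. Other sets held the words to differing extents: of 18 APC/C substrates with a window, 44.4% held both words and 50% at least 2 CCAAT boxes. Of 13 APC/C subunits 0% and 15.4% did, of 8 other checkpoint genes 25% and 12.5%, and of 4 further regulators 25% and 25%. Of the 741 genes called lower in TKO, 530 had a window, and 17.4% and 19.8% of those 530 did. Besides the lines shown, Fbxo5 had CCAAT boxes that began 93, 55 and 25 bases before the start and a homology region word 4 bases after it. Bub1b had 1 CCAAT box, with homology region words at -188 and 41, and Mad2l1 had neither word. Ube2s had a homology region word at -162, outside its printed line, and no CCAAT box. The differentially expressed genes all held both words and at least 2 CCAAT boxes. The words did not follow the size of the change in every gene. Bub3, with both words and 2 CCAAT boxes, had a log2 fold change of -0.33, while Mad2l1, with neither, had -0.72. A part of the words in the changes was not tested. Of 4 words of an E2F site (TTTCCCGC, TTTCGCGC, TTTGCCGC and TTTGGCGC), none was found in the windows of the 10 genes, and 2.6% of all genes with a window held one. With so small a share, finding none in 10 genes says little. The share was 9.81% for the 530 genes called lower and 16.7% for the 18 substrates. It was 7.69% for 13 APC/C subunits and 0% for 8 other checkpoint genes and 4 further regulators. Such matches describe letters and not binding.

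Among the checkpoint genes, the kinase genes Ttk and Bub1 fell steeply, while Mad2l1 and Bub3 fell by less and Bub1b did not pass the test. Ttk, which encodes the kinase MPS1 that starts the signal at kinetochores, had 22.9, 21.0 and 73.6 normalized counts in the TKO retinae and 249.4, 204 and 136 in the DKO retinae. The lowest DKO retina, replicate 3, still lay above the highest TKO retina, replicate 3. The means were 39.2 ± 29.8 and 197 ± 56.9 (SD, n = 3 each), 19.9% of the DKO level, with a log2 fold change of -2.34 ± 0.456 (SE, edgeR adjusted p = 0.0135). Bub1, which encodes the kinase that marks centromeric histone and recruits further checkpoint proteins, had 22.9, 29.5 and 85.9 normalized counts in the TKO retinae and 357, 320 and 162 in the DKO retinae. Replicate 3 of each group again lay nearest the other group. Its means were 46.1 ± 34.6 and 280 ± 103 (SD, n = 3 each), 16.5% of the DKO level, with a log2 fold change of -2.61 ± 0.483 (SE, edgeR adjusted p = 0.0119). Both genes missed 0.05 in edgeR when TKO replicate 2 was left out (adjusted p 0.0576 for each), when DKO replicate 1 was (0.0569 for Ttk, 0.0524 for Bub1) and when DKO replicate 2 was (0.0569 and 0.053).

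The adaptor and inhibitor subunits of the checkpoint kept most of their level. Mad2l1 encodes MAD2, the subunit that clamps onto CDC20. It had 203, 207 and 234 normalized counts in the TKO retinae and 399, 390 and 276 in the DKO retinae. The groups did not overlap, and TKO retinae held 60.5% of the DKO mean, with a log2 fold change of -0.72 ± 0.160 (SE, edgeR adjusted p = 0.0204). Bub3, a propeller protein that carries BUB1 and BUBR1 to kinetochores, had 805, 888 and 860 normalized counts in the TKO retinae and 1054, 1131 and 1024 in the DKO retinae. TKO retinae held 79.6% of the DKO mean, with a log2 fold change of -0.33 ± 0.0792 (SE, edgeR adjusted p = 0.0267). Both missed 0.05 in 4 of the 6 fits that left out 1 retina: with TKO replicate 1, TKO replicate 2, DKO replicate 1 or DKO replicate 2 omitted, the adjusted p of Mad2l1 was 0.0663, 0.0842, 0.0789 and 0.0884, and that of Bub3 was 0.0948, 0.0724, 0.0712 and 0.11.

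Bub1b encodes BUBR1, the relative of BUB1 that forms part of the inhibitor bound to CDC20. It had 309.6, 524 and 501 normalized counts in the TKO retinae and 788, 601 and 562 in the DKO retinae. The highest TKO and the lowest DKO library were close to each other. The log2 fold change was -0.55 ± 0.207 (SE, edgeR adjusted p = 0.107), and the adjusted p ran from 0.0547 to 0.292 over the other fits. The count of Bub1b was 13.5, 17.8 and 5.83 times that of Bub1 in the TKO retinae and 2.21, 1.88 and 3.46 times in the DKO retinae.

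**Figure D1:**
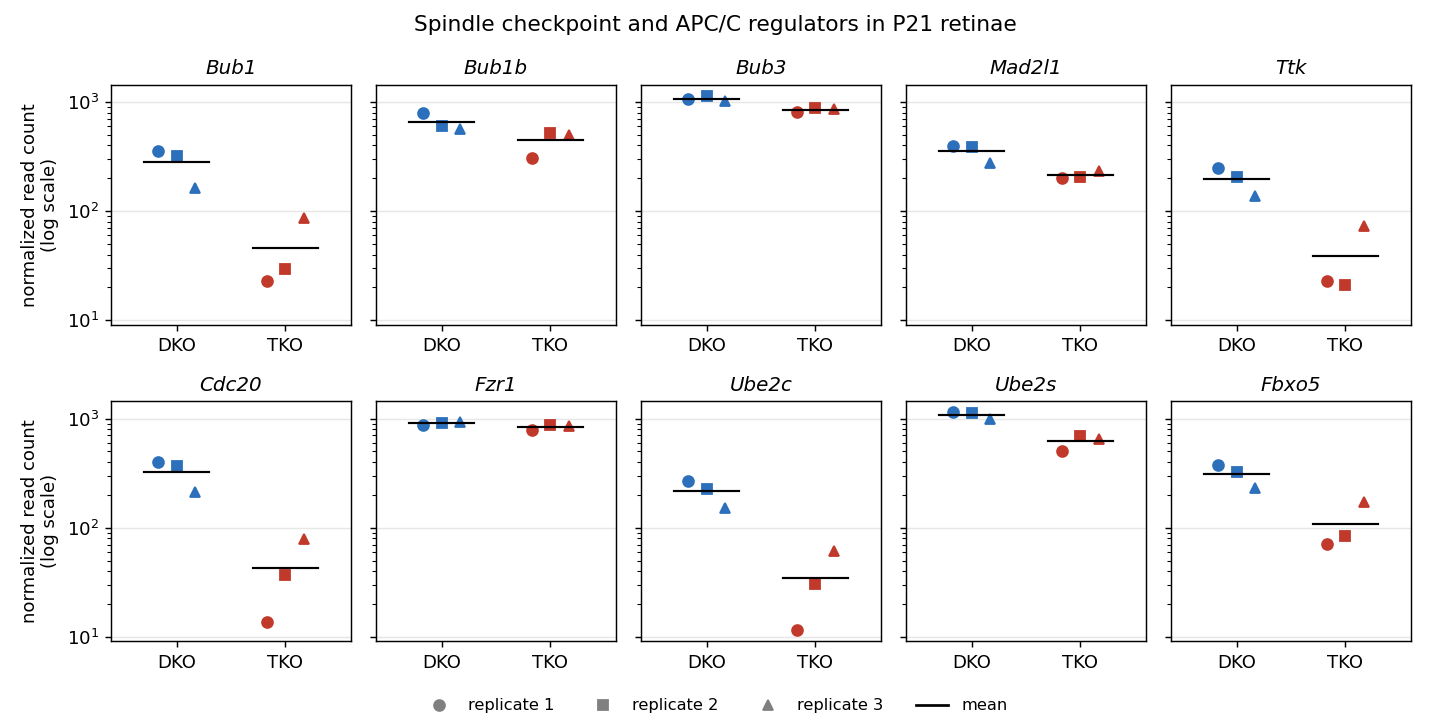
Normalized read count (log scale) of each of the 10 genes in 3 DKO and 3 TKO P21 retinae, with symbols for replicates and a bar for the mean. Cdc20, Ube2c, Bub1, Ttk and Fbxo5 lie far lower in TKO, with replicate 3 of each group nearest the other group, while Fzr1 lies at 786 to 865 in TKO and 873 to 923 in DKO.

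Of the APC/C activators, Cdc20 fell and Fzr1 did not pass the test. Cdc20, the activator that the checkpoint holds back, showed the steepest fall of the 10 genes. It had 13.8, 36.8 and 78.5 normalized counts in the TKO retinae and 401, 364 and 214 in the DKO retinae. The means were 43.0 ± 32.8 and 326 ± 99.0 (SD, n = 3 each), 7.58-fold lower in TKO, with a log2 fold change of -2.93 ± 0.483 (SE, edgeR adjusted p = 0.00898). It passed 0.05 in each of the 6 fits that left out 1 retina, the highest edgeR adjusted p being 0.0483. Fzr1, which encodes the activator CDH1, had 786, 865 and 863 normalized counts in the TKO retinae and 873, 906 and 923 in the DKO retinae. Its means were 838 ± 45.3 and 901 ± 25.2 (SD, n = 3 each), 93.0% of the DKO level, and the log2 fold change of -0.10 ± 0.0769 (SE, edgeR adjusted p = 0.378) did not pass the test. It ran from -0.26 to -0.061 over the other fits, the lowest being with total counts only, a scaling that moved the median of all genes from -0.011 to -0.17.

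Both genes of ubiquitin-conjugating enzymes of the APC/C fell in TKO retinae. Ube2c, whose product starts ubiquitin chains, had 11.5, 30.5 and 61.4 normalized counts in the TKO retinae and 269, 226 and 150 in the DKO retinae. Its lowest value was in TKO replicate 1, with 10 counts before scaling. The log2 fold change was -2.65 ± 0.465 (SE, edgeR adjusted p = 0.0105), 6.24-fold lower in TKO, and leaving out TKO replicate 2 gave an adjusted p of 0.0532. Ube2s, whose product extends the chains, had 505, 695 and 648 normalized counts in the TKO retinae and 1138, 1126 and 999.8 in the DKO retinae. TKO retinae held 56.6% of the DKO mean, with a log2 fold change of -0.82 ± 0.124 (SE, edgeR adjusted p = 0.00752). This was the smallest adjusted p of the 10 genes, it passed 0.05 in the 6 fits that left out 1 retina, and the fold was under the minimum for a differentially expressed gene.

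Fbxo5 encodes EMI1, which blocks the APC/C from the start of DNA replication until mitosis. It had 71.1, 84.2 and 171 normalized counts in the TKO retinae and 372, 320 and 232 in the DKO retinae. TKO replicate 3 was again the nearest to the DKO libraries. Its log2 fold change was -1.51 ± 0.322 (SE, edgeR adjusted p = 0.0182), 2.84-fold lower in TKO, between the steep and the shallow genes. With TKO replicate 1, TKO replicate 2, DKO replicate 1 or DKO replicate 2 omitted, its edgeR adjusted p was 0.051, 0.079, 0.0714 and 0.0705.

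The count of differentially expressed genes among the 10 therefore depended on single retinae: it was 1 (Cdc20) without TKO replicate 2, 2 (Cdc20 and Ube2c) without DKO replicate 1 and likewise without DKO replicate 2, 4 without TKO replicate 1, where Fbxo5 was lost, and 5 without either replicate 3. All log2 fold changes stayed below 0. TKO replicate 1 was the lowest of its group for 9 of the 10 genes, with Ttk as the exception, and DKO replicate 3 the lowest of its group for 9, with Fzr1 as the exception.

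Ratios within a library do not depend on how libraries are scaled. Between Fzr1 and Cdc20, the log2 ratio was 4.62 ± 1.19 for TKO against 1.52 ± 0.522 for DKO (SD, 3 retinae each), so Fzr1 counts were 57.1, 23.5 and 10.98 times those of Cdc20 in the TKO retinae and 2.18, 2.49 and 4.31 times in the DKO retinae. The log2 ratio of Ube2s to Ube2c was higher in TKO by 2.08, that of Bub3 to Bub1 by 2.44 and that of Bub1b to Bub1 by 2.20. For each of the 4 pairs the groups did not overlap, and an exact permutation test (two-sided) gave p = 0.1, also when adjusted over 4 pairs, the smallest p that 3 retinae against 3 allow. Each pair set a gene with a smaller fall over one with a steep fall, so the higher ratios restate the fold changes given above. How many other pairs of genes separated the groups likewise was not counted.

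**Figure D2:**
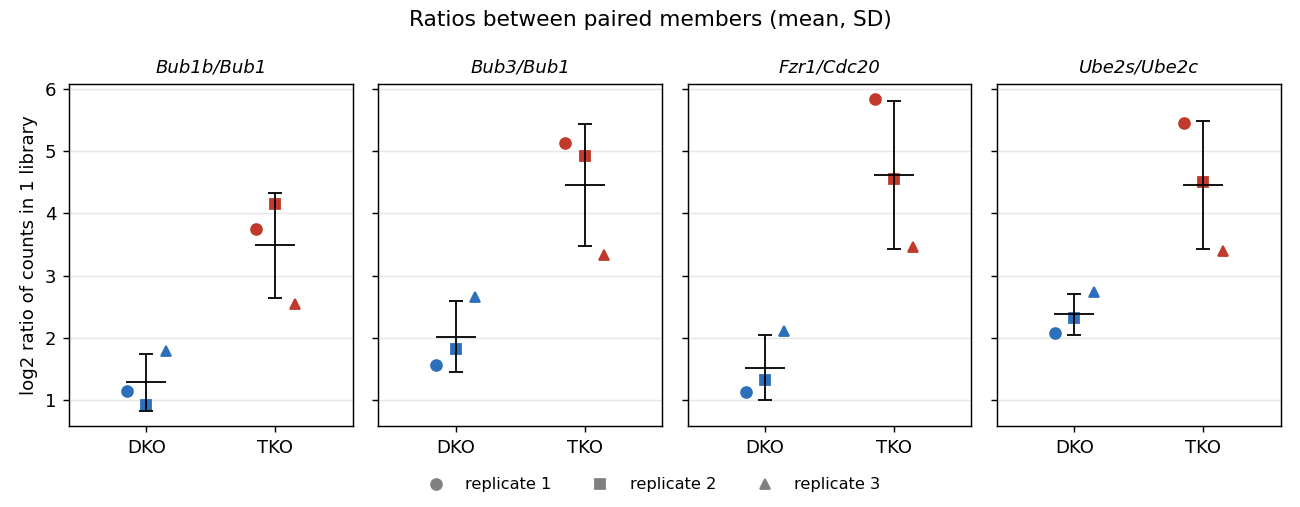
Log2 ratio of the counts of paired genes within each library, in 3 DKO and 3 TKO retinae, with the mean and SD. In each of the 4 pairs every TKO value lies above every DKO value, and replicate 3 lies nearest the other group. Each pair sets a gene with a smaller fall over one with a steep fall.

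Set beside Mki67 in the same library, 4 genes kept a like share of its count in both groups or nearly so, and 6 had a higher share in TKO retinae. As a share of the Mki67 count, Cdc20 was 8.28% to 11.3% in TKO and 11.4% to 16.9% in DKO retinae, Ube2c 6.90% to 9.33% and 7.66% to 10.5%, Bub1 9.003% to 13.8% and 9.87% to 14.8%, and Ttk 6.43% to 13.8% and 7.10% to 9.46%. The 2 groups overlapped for Ube2c, Bub1 and Ttk, and Cdc20 lay just below. Fbxo5 was at 21.8% to 42.8% of the Mki67 count in TKO and 10.6% to 14.9% in DKO retinae. Fzr1 was at 24.9% to 56.1% of the Mki67 count in DKO and at 110% to 472% in TKO retinae, and Bub3, Bub1b, Mad2l1 and Ube2s likewise stood higher against Mki67 in each TKO than in each DKO library. Mki67 itself had a log2 fold change of -2.52 ± 0.508 (SE, edgeR adjusted p = 0.0152) and Top2a, a topoisomerase of dividing cells, of -3.21 (edgeR adjusted p = 0.0078). Because Mki67 fell this far, a gene with little or no change also stood higher against it. The typical tested gene changed little (median -0.011). A higher share therefore does not set the 6 genes apart from other genes, and how many other genes had one was not counted. These shares are a description, with no test.

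**Figure D3:**
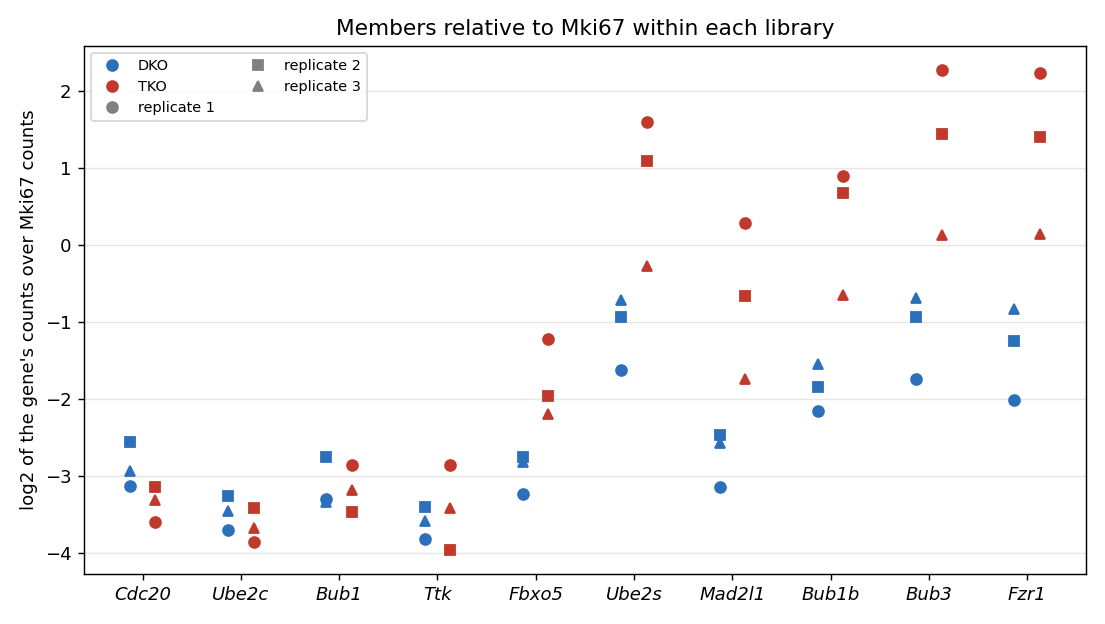
Log2 of each gene's counts over the Mki67 counts of the same library, in 3 DKO and 3 TKO retinae. Cdc20, Ube2c, Bub1 and Ttk stay between -3.96 and -2.57 in both groups, whereas Fzr1 moves from at most -0.83 in DKO to at least 0.14 in TKO.

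Levels were ordered by their group means per kilobase of the principal annotated transcript. The DKO order was Ube2s (879 normalized counts per kilobase), Bub3 (482), Fzr1 (295), Ube2c (222), Cdc20 (182), Bub1b (177), Fbxo5 (159), Bub1 (81.7), Ttk (68.5) and Mad2l1 (47.0). The ranges of the first 3 overlapped neither each other nor that of Ube2c. Neighbours from Ube2c down to Fbxo5, and from Bub1 down to Mad2l1, had overlapping ranges. In TKO retinae the first 3 were the same, at 497, 384 and 274, followed by Bub1b (121), Fbxo5 (56.0), Ube2c (35.6), Mad2l1 (28.4), Cdc20 (24.0), Ttk (13.7) and Bub1 (13.5), and each neighbouring pair from Bub1b on overlapped. Within single retinae, Cdc20 had ranks 9, 8 and 7 in TKO and 5, 5 and 7 in DKO, so replicate 3 of both groups shared a rank. Ube2s, Bub3 and Fzr1 kept ranks 1, 2 and 3 in all 6 retinae. Counts on a gene include its other transcripts, so these levels are approximate, most of all for Mad2l1, whose principal transcript has 7557 bases.

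The genes around the 10 were described by 4 hand-written lists, also chosen with earlier results of these data known, so their counts are a description. Of the 14 subunits of the APC/C itself, none was differentially expressed, and the median log2 fold change was -0.087. Anapc5 and Cdc23 were lower with the adjusted p alone (-0.45 and -0.28, edgeR adjusted p = 0.0384 and 0.0403) and Anapc16 was higher (0.31, adjusted p = 0.0467). Anapc1, the largest scaffold subunit and among those with the most counts, had 2301 ± 113 normalized counts in TKO retinae (SD, n = 3) against 2360 ± 291 in DKO.

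Of 9 other checkpoint genes, 5 were differentially expressed, all lower, and the median log2 fold change was -1.66. They were Casc5 (Knl1), the kinetochore scaffold for BUB1 and BUBR1, at -2.76, Kntc1 and Zwilch of the complex that brings dynein to kinetochores at -2.32 and -1.66, the adaptor Spdl1 at -1.66, and the ATPase Trip13, which remodels MAD2, at -1.75. Zw10, the partner of Kntc1 and Zwilch in that complex, did not pass the test (-0.074, edgeR adjusted p = 0.712), nor did Mad1l1 (0.0023), Zfp207, with the most counts of the list (0.12), or Mad2l1bp (0.25). The count of 5 was 2 without TKO replicate 2 and 3 without DKO replicate 1 or DKO replicate 2.

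Of 22 genes whose products the APC/C marks for destruction, 21 were differentially expressed and lower, with a median log2 fold change of -2.29. Ccnb1, a mitotic cyclin, had the lowest value (-2.89, edgeR adjusted p = 0.00846), and Rrm2 and Ccna2, with the most counts of the list, had -2.29 and -1.32. The exception was Pttg1, which encodes securin, the inhibitor of separase. Pttg1 had 248.8, 256 and 241 normalized counts in the TKO retinae and 197, 189 and 243 in the DKO retinae. The groups overlapped, and the log2 fold change of 0.24 ± 0.133 (SE, edgeR adjusted p = 0.238) did not pass the test in any fit. The count of 21 fell to 11 without TKO replicate 2 and to 14 without DKO replicate 1 or DKO replicate 2.

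Of 7 further regulators, Ccnf and Usp44 were differentially expressed and lower. Usp44, which encodes a ubiquitin protease that acts on CDC20, had 3, 2 and 2 counts in the TKO retinae and 44, 36 and 27 in the DKO retinae, which is at least 9.36-fold lower with 3 counts per library as the floor. Ccnf, which encodes an F-box cyclin, had a log2 fold change of -1.52 (edgeR adjusted p = 0.00733). Otud7b, a ubiquitin protease gene with the most counts of this list, was higher with the adjusted p alone (0.90, edgeR adjusted p = 0.00821), with 2041 to 2941 normalized counts in TKO and 1233 to 1536 in DKO libraries. Mad2l2, Ube2d1, Usp37 and Fbxo43 did not pass the test, at -0.59, -0.32, -0.11 and 0.64.

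**Figure D4:**
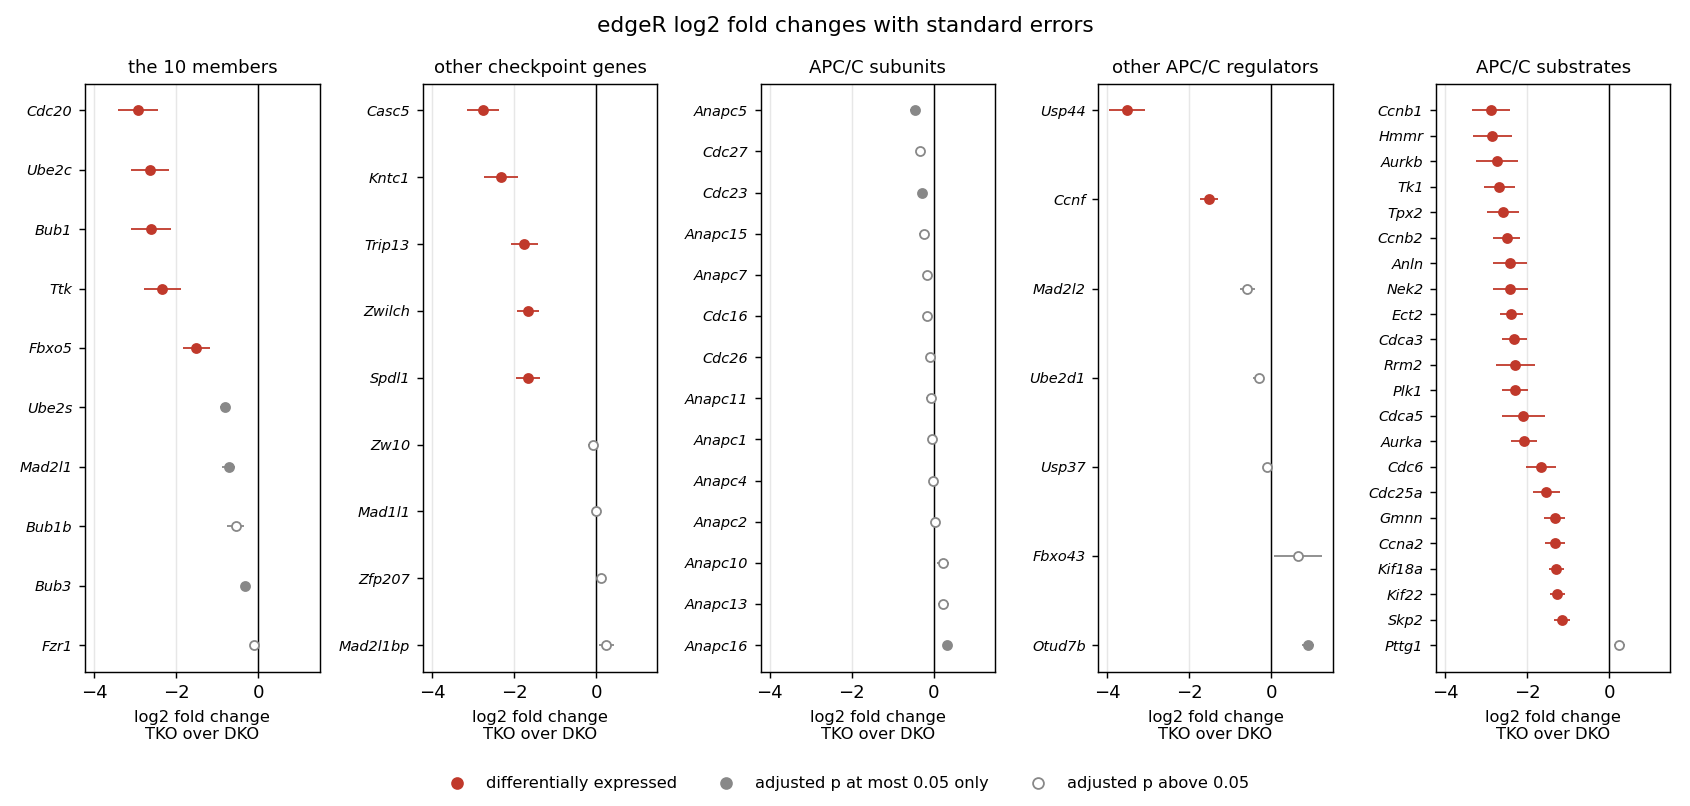
Log2 fold change of TKO over DKO with its standard error from edgeR, for the 10 genes and 4 lists around them, ordered within each panel. The APC/C subunits lie between -0.45 and 0.31, while 21 of 22 substrates lie at -1.15 or lower and Pttg1 at 0.24.

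Other genes were ranked by how closely their centred log2 profile over the 6 libraries followed a gene of interest, among 12902 genes with a mean of at least 50 normalized counts. The 5 closest to Cdc20 were Melk, Ckap2l, Aurkb, Kif18b and Ccnb1, with root mean square differences of 0.0956 to 0.134 on the log2 scale. The 5 closest to Fzr1 were Dda1, Lrrc41, Brd2, Reep2 and Bach1, at 0.0161 to 0.0255.

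Markers of several cell types differed between the groups as well. The 5 rod markers Gnat1, Pde6b, Sag, Nrl and Nr2e3 were differentially expressed and higher in TKO retinae, with a summed CPM (counts scaled to library size) of 13944 to 27621 in TKO and 4719 to 8958 in DKO libraries, and replicate 3 lay nearest the other group here as well. Of 5 microglia markers, 3 were lower (Aif1, Cx3cr1 and Csf1r), with summed levels of 51.4 to 82.5 and 94.9 to 139 CPM. Of 4 Muller glia markers 1 was higher (Glul), and Rlbp1 was higher with the adjusted p alone (0.76, edgeR adjusted p = 0.00821). Aqp4 and Slc1a3 did not pass the test (0.28 and -0.12), and the Muller sums were 3279 to 3964 CPM in TKO and 1944 to 2153 in DKO libraries. Among bipolar, amacrine, horizontal and ganglion cell markers, 0 of 5, 0 of 4, 0 of 4 and 0 of 4 were differentially expressed. The horizontal markers Onecut1, Lhx1 and Onecut2 had log2 fold changes of -1.24, -0.87 and -0.70 without passing the test (edgeR adjusted p = 0.0511, 0.185 and 0.117). The other horizontal marker, Calb1, had 0.092. Of 5 cone markers 2 were higher, at sums of 430 to 1190 and 299 to 488 CPM, as was 1 of 4 RPE markers, at 18.9 to 79.5 and 3.50 to 25.1, and none of 3 endothelial markers, at 25.8 to 28.5 and 15.02 to 24.1. The endothelial marker Pecam1 was higher with the adjusted p alone (0.87, edgeR adjusted p = 0.0336). Of 5 lens markers 3 were higher, with a summed CPM of 42.8, 229 and 35.3 in the TKO retinae and 6.14 to 6.44 in the DKO retinae. Of 5 blood markers only Alas2 had enough counts to be tested. The part of these cell types in the levels of the 10 genes was not tested.

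On GRCm38 with the GENCODE M21 annotation, each count covers the exons of a protein-coding gene. The genes span chr9:83834689-83872389 (plus strand) for Ttk, chr2:127801122-127831865 (minus strand) for Bub1, chr2:118598211-118641591 (plus strand) for Bub1b, chr7:131560222-131571895 (plus strand) for Bub3, chr6:66535390-66547220 (plus strand) for Mad2l1, chr4:118432901-118437352 (minus strand) for Cdc20, chr10:81366222-81378516 (minus strand) for Fzr1, chr2:164769898-164778822 (plus strand) for Ube2c, chr7:4794546-4812590 (minus strand) for Ube2s and chr10:5799160-5805600 (minus strand) for Fbxo5. Shared sequence limits a few of the counts. The exons of Ube2c share 592 bases (22.8% of its merged exons) with Tnnc2, a muscle troponin gene on the opposite strand, which had 220 counts in TKO replicate 2 and 0 to 8 in the other libraries. The exons of Ube2s share 183 bases with Rpl28, those of Cdc20 share 53 bases with Elovl1 and those of Fzr1 share 4 bases with Mfsd12, all on opposite strands. The strand setting of the counting is not stated, so reads there cannot be assigned with certainty. Bub3 lies inside the span of Fgfr2 without shared exon bases. The longest stretches of at least 95% identity with transcripts of other genes, outside such overlaps, were 455 bases between Cdc20 and Gm7856 and 454 bases between Mad2l1 and Gm42430, both not in the count table.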

How the data were processed

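RNA-seq counts were analysed from 3 TKO and 3 DKO retinae, grouped by the sample titles. The authors deposited raw counts per gene symbol, 1 column per retina. Per the study's methods, reads from TruSeq Stranded libraries were aligned to GRCm38 with STAR and counted with HTSeq, whereas the submitters' processing notes name TopHat2, featureCounts and DESeq2. Which tools made this table is not settled, and the strand setting is not given in the sources used here. Totals per library of 10343907 to 14203098 counts set the counting error. Retinae of the same group differed by more than that, with a chi-square per degree of freedom of 8.97 to 26.6, where counting error alone gives about 1. A floor of 3 counts was used for values near 0, which covers counting error only.

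Genes summing to fewer than 10 counts were left out. Testing was done in R 4.3.3 with edgeR 4.0.16 (TMM scaling, quasi-likelihood F test), and p-values were adjusted by Benjamini-Hochberg over all 16904 genes. The study's methods name DESeq2, which was run as an alternative (1.42.0) and whose size factors gave the mean count used as a minimum. Standard errors were derived from the fold change and F. Normalized counts were scaled by TMM to the mean library. On simulated data of this design, 194 of 200 changed genes passed the adjusted p in the true direction, along with 15 of 16545 genes left unchanged. The changed genes were drawn from those with higher counts, with changes of more than 1 on the log2 scale. Recovery of smaller changes, like those of Bub1b, Bub3, Mad2l1, Fzr1 and Ube2s, was not simulated. Other scalings, filters, thresholds, robust dispersion, a replicate block and the omission of each retina were tried.

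Genes were named by a rule: the 10 genes, Hells, Rb1 and Rbl1, Mki67 and Top2a, the members of each list with the largest counts or the lowest or highest fold changes, overlapping genes and near-identical copies, and the genes closest in profile to Cdc20 and Fzr1. Other list members were named after their values were seen. The 10 genes and the lists were chosen with earlier results of these data known, and the promoter words after the values were seen. Casc5 was matched to Knl1 through a RefSeq synonym. The GENCODE annotation used for positions may differ from the authors' annotation. One listed marker gene is not reported here.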

Additional observations from a re-analysis of the deposited data

How the results depend on the processing

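No log2 fold change of the 10 genes changed sign in any fit. With DESeq2, the other scalings, the other filters and robust dispersion, 5 genes were called lower and 8 had an adjusted p of at most 0.05, as before, and a minimum fold change of 1.5 in place of 2 gave 7. With an adjusted p of at most 0.01 the count was 1 (Cdc20). With 1 retina omitted at a time (6 fits), between 1 and 5 of the 10 genes were called lower, 2 to 8 had an adjusted p of at most 0.05, and 0 were called higher. In the same fits 2 to 5 other checkpoint genes, 11 to 21 substrates, 2 further regulators and 0 subunits were called lower, and 0 to 1 further regulators (1, without TKO replicate 3) were called higher. The differences in log2 ratio kept their sign with a pseudocount and in these fits. With the replicate number as a block, 0 of the 10 genes were called lower and 0 had an adjusted p of at most 0.05 (0.0566 for Ube2s to 0.377 for Fzr1 from edgeR), and 0 other checkpoint genes, 0 substrates and 1 further regulator were called lower. Of all genes, 90 were called with the block and 1074 without it. Retinae with the same number deviated from their groups with correlations of 0.147, -0.1 and -0.134 (12903 genes), and 2 of 6 libraries correlated best with their own number, so shared numbers were not taken as pairs. The cause of the changes with single retinae was not tested. The counts of Cdc20, Ube2c, Ttk and Bub1 in TKO libraries, from 10 to 70, limit the precision of their folds.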
